A study of Rattus norvegicus with 36 samples.

Results

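Lung tissue taken 3 weeks after a single dose of 15 Gy, given as X-rays to the whole chest, was represented by 3 small RNA libraries out of 36 in the series, 18 of which came from lung and the rest from whole blood. They were chosen by their labels and were set against the 3 libraries of unirradiated lung (0 Gy) at 4 weeks, the control nearest in time. The rats were female WAG/RijCmcr, an inbred Wistar strain, and were 9 to 10 weeks old at irradiation, with lung, heart and some liver inside the field. The controls were of the same age and were held in the same way without irradiation, and no control was taken at 3 weeks, so that dose and 1 week of age differ together in the main comparison. Lung came from the right superior lobe as whole tissue, so that fewer cells of a type and less miRNA per cell cannot be told apart. The paper describes each library as a pool of RNA from 3 rats and each group as 9 rats, where the sample labels give 3 rats per group, and n below counts libraries. The other lung groups used here were 15 Gy at 2 weeks, 15 Gy at 4 weeks and 0 Gy at 1 week, with 3 libraries each.

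MicroRNAs (miRNAs) are RNAs of about the length of a short primer that pair with messenger RNAs, mainly through a short seed near their 5′ end, and lower their translation or stability. Each precursor hairpin holds a 5p and a 3p arm, of which 1 is usually far more abundant. Many miRNAs are made mainly in particular cells, so that in whole lung miR-143-3p is known for smooth muscle, miR-126a for endothelium, the miR-200 and miR-183 groups for epithelium, miR-375-3p for neuroendocrine cells, and miR-486-5p and miR-451-5p for red blood cells. In the weeks after thoracic irradiation the lung passes through a largely silent phase before pneumonitis, and miR-21 and miR-146 are known to be induced in inflammation.

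The miRNAs on which the comparison turned most are printed here with their seed, bases 2 to 8, in capitals. The mature sequences are those of RefSeq on the rat assembly GRCr8, which matched 218 of the 242 mature miRNAs tested. The first 3 had the smallest p among the mature miRNAs with lower values after 15 Gy. miR-143-3p is the most abundant mature miRNA of these lungs, and miR-92a-3p and miR-25-3p share a seed.
miR-375-3p: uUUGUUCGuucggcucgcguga
miR-127-3p: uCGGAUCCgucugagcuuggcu
miR-28-3p: cACUAGAUugugagcuccugga
miR-143-3p: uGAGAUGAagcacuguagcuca
miR-92a-3p: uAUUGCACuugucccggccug
miR-25-3p: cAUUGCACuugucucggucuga
The next miRNAs had higher values after 15 Gy, except let-7a-5p, which is shown for the seed of the let-7 family. miR-23a-3p and miR-23b-3p are near-identical and share a seed, and so do let-7f-1-3p and miR-98-3p, which come from the 3p arms of let-7 family hairpins.
miR-23a-3p: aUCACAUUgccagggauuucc
miR-23b-3p: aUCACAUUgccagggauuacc
let-7f-1-3p: cUAUACAAucuauugccuucc
miR-98-3p: cUAUACAAcuuacuacuuucc
let-7a-5p: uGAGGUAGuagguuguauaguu
miR-451-5p: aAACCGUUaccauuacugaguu
miR-183-5p lies at chr4:59756106-59756127 on the minus strand of GRCr8 and miR-3553 at chr4:59756105-59756127 on the plus strand, so that the pair are read from opposite strands of the same bases.
miR-183-5p: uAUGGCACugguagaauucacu
miR-3553: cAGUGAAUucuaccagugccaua

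The libraries differed greatly in depth. The 3 libraries at 15 Gy 3 weeks held 1047462, 1567653 and 8132 counts, against 3807051, 2013989 and 1682183 at 0 Gy 4 weeks. In 15 Gy 3 weeks replicate 3, 1 count was worth 139.7 CPM (the count scaled by library size and TMM factor, the unit of all levels below), against 0.923 and 0.604 CPM in the other 15 Gy 3 weeks libraries. Its median Spearman correlation with the other 17 lung libraries was 0.779, where replicates 1 and 2 had 0.956 and 0.955. In this library 37 of the 242 tested mature miRNAs had at least 10 counts and 124 had none, which for a level at 0 allows up to 419.1 CPM (3 counts). Such limits and all counting intervals below cover counting error only, since reads copied by PCR are not independent molecules. The red cell miRNA miR-486-5p took 48.1% of its counts (95% exact binomial interval 47.0 to 49.2%), against 1.09% and 2.16% in 15 Gy 3 weeks replicates 1 and 2, and 0.712%, 2.38% and 4.24% in the 0 Gy 4 weeks libraries. A control library stood apart as well. In 0 Gy 4 weeks replicate 3, miR-143-3p took 17.9% of the counts, against 7.49%, 8.99% and 5.02% in the 15 Gy 3 weeks libraries and 9.58% and 9.43% in the other 0 Gy 4 weeks libraries. Its TMM factor was 0.463, where the other 5 libraries had 0.881 to 1.09, and 70 of the 242 tested mature miRNAs had their highest level of the 6 libraries in it. Most levels are given library by library, and many values are also given without either of these libraries.

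No mature miRNA passed the test between 15 Gy at 3 weeks and 0 Gy at 4 weeks. Of 499 miRNAs tested with edgeR in a fit of the 18 lung libraries, 0% were called at an adjusted p under 0.05, and the smallest adjusted p was 0.574. At an unadjusted p under 0.05, 12 (2.40%) were higher and 27 (5.41%) lower, and 3 and 10 of these were among the 242 mature rat miRNAs. Without 15 Gy 3 weeks replicate 3, 558 miRNAs were tested, 0% passed, and 8 (1.43%) were higher and 17 (3.05%) lower at an unadjusted p under 0.05, with 3 and 5 mature ones among them. DESeq2 called 2 higher (0.403%) and 3 lower (0.605%) of 496, none of them a mature miRNA, and its smallest adjusted p of a mature miRNA was 0.208. Over the mature miRNAs the log2 fold changes (15 Gy 3 weeks over 0 Gy 4 weeks) were above 0 for 122 and below 0 for 120, with a median of 0.01, and over all 499 the median was -0.10, or -0.03 without 15 Gy 3 weeks replicate 3. Without that library 265 of 558 lay above 0 and 290 below it. The values below are therefore those of miRNAs with the smallest p in each direction, none of which passed after adjustment.

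Among the mature miRNAs with lower values, the 12 with the smallest p were led by miR-375-3p, which in pancreas and lung marks endocrine cells. It had 2014, 3010 and 1537 CPM at 15 Gy 3 weeks, against 3169, 4460 and 12670 CPM at 0 Gy 4 weeks. All 15 Gy libraries lay below all 0 Gy libraries, and the highest 0 Gy value came from replicate 3. The value of 15 Gy 3 weeks replicate 3 rested on 11 counts (95% Poisson interval 767 to 2750 CPM). Its log2 fold change was -1.62 (SE 0.52, 95% interval -2.63 to -0.61, edgeR adjusted p = 0.574), and it was -1.56 without 15 Gy 3 weeks replicate 3 and -0.78 without 0 Gy 4 weeks replicate 3. Against 0 Gy at 1 week, where the level was 2288 ± 428 CPM (SD, n = 3), the log2 fold change was -0.05.

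For miR-127-3p, a miRNA of the imprinted Dlk1-Dio3 region, leaving out either of the libraries that stood apart moved the value little. Its levels were 390.5, 465.7 and 279.4 CPM at 15 Gy 3 weeks, against 576.6, 991 and 780.3 CPM at 0 Gy 4 weeks, and the groups did not overlap. The value of 15 Gy 3 weeks replicate 3 rested on 2 counts, for which the Poisson interval ran from 33.8 to 1010 CPM. The means were 379 ± 93.7 CPM at 15 Gy 3 weeks and 783 ± 207 CPM at 0 Gy 4 weeks (SD, n = 3 each), and the 95% interval of the log2 fold change ran from -1.66 to -0.34 (SE 0.34, edgeR adjusted p = 0.574). The log2 fold change was -0.92 without 15 Gy 3 weeks replicate 3, -0.99 without 0 Gy 4 weeks replicate 3, -0.85 without both and -0.58 against 0 Gy at 1 week. Only 5 of the 68 listed miRNAs of this region passed the filter on low counts, and the other 4 tested ones lay at log2 fold changes of -0.31 to 0.19. The levels of miR-136-3p, miR-411-5p, miR-434-3p and miR-541-5p stood at most at 29.6 CPM in any of the 6 libraries.

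miR-143-3p, which promotes the contractile state of smooth muscle, had 72410, 85120 and 57000 CPM at 15 Gy 3 weeks, against 90020, 86580 and 386400 CPM at 0 Gy 4 weeks. The groups did not overlap, but 15 Gy 3 weeks replicate 2 and 0 Gy 4 weeks replicate 2 were close, and 1 control library stood far above the rest. The shallow 15 Gy library held 408 counts of it (95% Poisson interval 51600 to 62800 CPM). For miR-143-3p the log2 fold change was -1.39 (SE 0.53, edgeR adjusted p = 0.574), and it was -0.28 without 0 Gy 4 weeks replicate 3 and -0.14 without both replicates 3. As a share of all counts, with no TMM scaling, miR-143-3p took 7.17 ± 2.01% at 15 Gy 3 weeks and 12.3 ± 4.83% at 0 Gy 4 weeks (SD, n = 3 each), with an exact two-sided permutation p of 0.1, the smallest that 3 against 3 libraries allow. miR-143-3p was picked from these same libraries and its shares separate the groups fully, so that this p adds no support. The other miRNAs of its list went both ways. miR-143-5p, the minor arm of the same hairpin, was at 0.21, miR-145-5p of the same transcript at -0.83 and miR-145-3p at 1.00. In the shallow library miR-143-5p stood at 139.7 CPM on a single count. Of the 4 miRNAs of the list, 2 lay above 0 with that library and 1 without it.

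miR-28-3p had 2180, 2160 and 698.5 CPM at 15 Gy 3 weeks, against 1991, 3310 and 10260 CPM at 0 Gy 4 weeks. The groups overlapped, and the log2 fold change of -1.60 (SE 0.59, edgeR adjusted p = 0.574) became -0.61 without 0 Gy 4 weeks replicate 3. miR-101a-3p, a repressor of the histone methyltransferase EZH2 in human cells, had 466.2, 552.7 and 558.8 CPM at 15 Gy 3 weeks, against 899.8, 877.9 and 1897 CPM at 0 Gy 4 weeks, with no overlap. Its log2 fold change was -1.23 (SE 0.52), or -0.75 without 0 Gy 4 weeks replicate 3, and miR-101b-3p with the same seed was at -0.90. miR-192-5p, a p53-induced miRNA that is abundant in liver and gut, had 610.3, 603.4 and 419.1 CPM at 15 Gy 3 weeks, against 829, 931.7 and 1822 CPM at 0 Gy 4 weeks, again with no overlap. It stood at -1.10 (SE 0.47) on the log2 scale, and at -0.64 without 0 Gy 4 weeks replicate 3. In the shallow library miR-101a-3p rested on 4 counts (95% Poisson interval 152 to 1430 CPM) and miR-192-5p on 3 (86.4 to 1220 CPM). Both intervals reach into the range of the controls. The liver miRNA miR-122-5p had 1, 0 and 0 counts at 15 Gy 3 weeks and 0 counts in each 0 Gy 4 weeks library, and miR-194-5p, of the same clusters as miR-192-5p, was at 0.21.

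miR-92a-3p, the endothelial and red cell member of the miR-17-92 cluster, had 3029, 3596 and 5169 CPM at 15 Gy 3 weeks, against 4452, 10100 and 5498 CPM at 0 Gy 4 weeks. The shallow 15 Gy library lay above 1 control library, and the other 15 Gy libraries lay below all controls. For miR-92a-3p the log2 fold change was -0.77 (SE 0.35, edgeR adjusted p = 0.574), and it was -1.04 without 15 Gy 3 weeks replicate 3 and -0.92 without 0 Gy 4 weeks replicate 3. Members of this cluster and of miR-106b-25 split by seed. The 4 with the miR-17 seed (AAAGUGC), which act on cell cycle genes, lay above 0, at 0.13 for miR-106b-5p, 0.23 for miR-93-5p, 0.27 for miR-20a-5p and 0.85 for miR-17-5p. miR-19a-3p at -1.22, miR-19b-3p at -0.95 and miR-25-3p at -0.83 lay below it beside miR-92a-3p. Only miR-92a-3p had an unadjusted p under 0.05, and miR-17-5p with 19.4, 36.8 and 0 CPM at 15 Gy 3 weeks, against 17.5, 8.66 and 19.3 CPM at 0 Gy 4 weeks, was at -0.12 against 0 Gy at 1 week. Of all 499 miRNAs, 5.41% were lower at an unadjusted p under 0.05. Of the 8 tested members of these clusters, 5 had 0 counts in the shallow library. miR-363-3p, which is not on this list but has the seed of miR-92a-3p, lay above 0 at 0.74. The split was not tested.

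The remaining leading lower miRNAs were miR-361-3p, miR-30a-3p, miR-3570, let-7a-5p and miR-542-3p, with log2 fold changes of -0.91 to -1.46. miR-361-3p, miR-3570 and miR-542-3p stood at 0 counts in the shallow library and at 5.54 to 47.1 CPM in the other 15 Gy 3 weeks libraries, against 12.6 to 159 CPM at 0 Gy 4 weeks. miR-30a-3p also stood at 0 counts in the shallow library. It had 288 and 249.4 CPM in 15 Gy 3 weeks replicates 1 and 2. At 0 Gy 4 weeks it had 281.8, 399.3 and 1075 CPM, so that the groups overlapped. Without 0 Gy 4 weeks replicate 3, miR-30a-3p was at -0.64, miR-3570 at -0.67 and let-7a-5p at -0.45. At the levels of miR-361-3p, miR-3570 and miR-542-3p the shallow library could hardly have shown a count, so that its 0 is no evidence of a difference. miR-361-3p had 5.54 and 9.66 CPM in 15 Gy 3 weeks replicates 1 and 2, against 12.6, 20.5 and 18 CPM at 0 Gy 4 weeks, and its log2 fold change ranged little, from -1.06 to -1.17, with either or both replicates 3 left out. miR-542-3p, of the cluster of miR-322 (the rat counterpart of human miR-424) and miR-503, had 10.2 and 18.7 CPM, against 33.8, 26.4 and 37.3 CPM. miR-3570 is read from the strand opposite to miR-181a-1-3p, at a median count ratio of 1.06 over 14 lung libraries, and these are not independent.

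**Figure D1:**
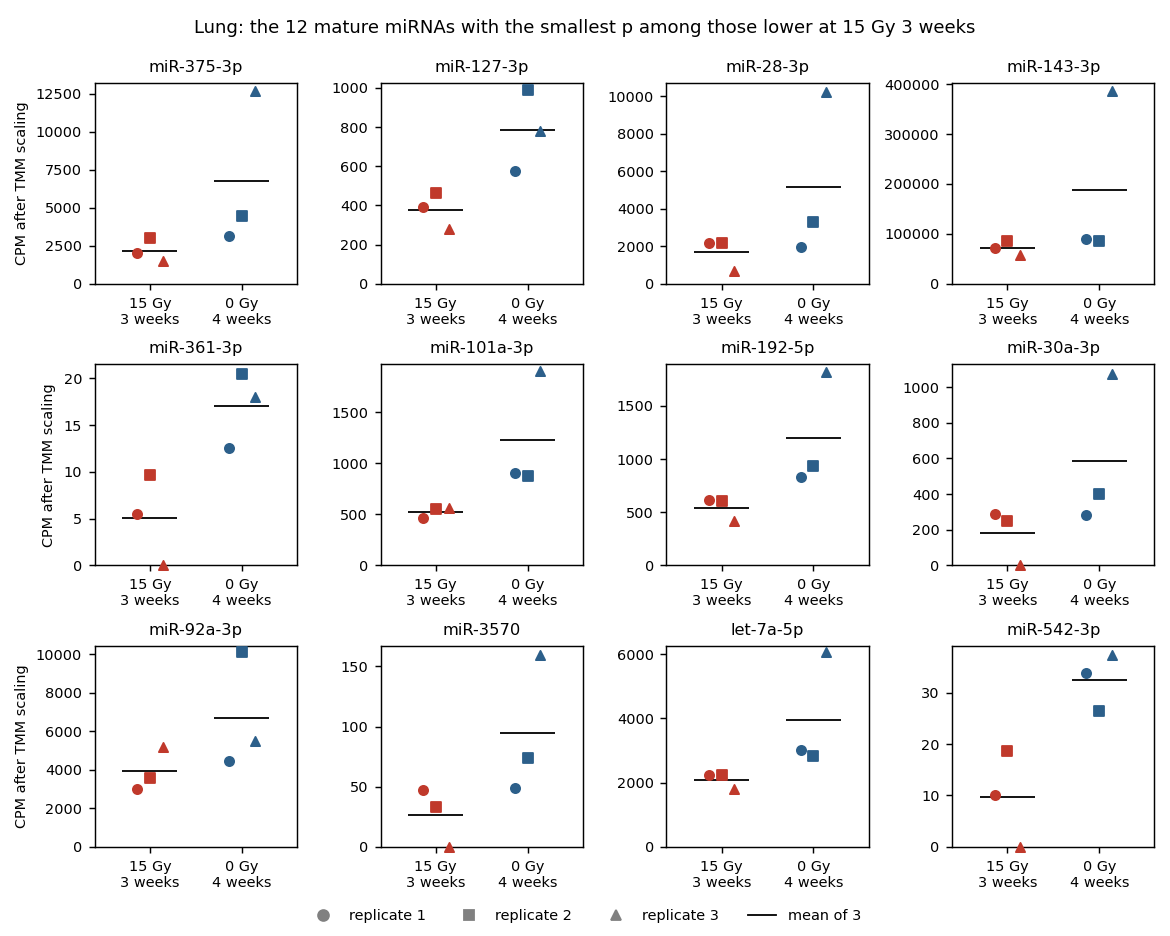
Levels (CPM after TMM scaling) of the 12 mature miRNAs with lower values and the smallest p, in 3 lung libraries at 15 Gy 3 weeks (red) and 3 at 0 Gy 4 weeks (blue), with the marker giving the replicate and the line the mean of 3. For miR-375-3p, miR-28-3p and miR-143-3p the highest point is 0 Gy 4 weeks replicate 3, at 12670, 10260 and 386400 CPM, while for miR-127-3p all 15 Gy points (279.4 to 465.7 CPM) lie below all 0 Gy points (576.6 to 991 CPM).

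Among the mature miRNAs with higher values, miR-451-5p had the smallest p, and it was set by the shallow library. This red cell miRNA, which is processed without Dicer, had 88.6, 62.2 and 1397 CPM at 15 Gy 3 weeks, against 83.2, 46.0 and 56.6 CPM at 0 Gy 4 weeks. The groups overlapped, and the value of 15 Gy 3 weeks replicate 3 stood for 10 counts (95% Poisson interval 670 to 2570 CPM). The log2 fold change of 2.66 (SE 0.90, edgeR adjusted p = 0.574) became 0.25 without 15 Gy 3 weeks replicate 3. miR-486-5p was likewise highest in the shallow library, with 10540, 20450 and 546400 CPM at 15 Gy 3 weeks, against 6687, 21810 and 91660 CPM at 0 Gy 4 weeks. Its log2 fold change was 2.26 (SE 1.28, edgeR adjusted p = 0.606), and it was -1.54 without 15 Gy 3 weeks replicate 3, 3.67 without 0 Gy 4 weeks replicate 3 and 0.14 without both. As a share of all counts it did not separate the groups either (exact two-sided permutation p = 0.7, n = 3 each). The deposited table lists miR-486-5p among homologs of miRNAs of other species, so that it is not one of the 242 mature miRNAs.

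All 6 tested miRNAs of the red cell list lay above 0, with a median of 0.53, where 45.1% of all 499 miRNAs did. Without 15 Gy 3 weeks replicate 3, 5 of the 6 did, with a median of 0.32. miR-16-5p, which is abundant in red cells but made in many cell types, had 2224, 1390 and 3073 CPM at 15 Gy 3 weeks, against 2598, 1117 and 672.3 CPM at 0 Gy 4 weeks. miR-144-3p and miR-144-5p, from the same transcript as miR-451, and miR-15b-5p had 0 counts in the shallow library and log2 fold changes of 0.19 to 0.47. The summed level of the list was 12960, 22020 and 550800 CPM at 15 Gy 3 weeks, against 9502, 23040 and 92450 CPM at 0 Gy 4 weeks, so that replicate 3 was the highest in either group. In replicate 3 of either group this sum was nearly all miR-486-5p, at 546400 and 91660 CPM. Among the 0 Gy 4 weeks libraries, every other tested miRNA of the list was highest in replicate 1. The level of miR-486-5p thus differed between libraries of 1 group, and its part in the other results was not tested.

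miR-23a-3p, miR-23b-3p and miR-27a-3p of the miR-23a and miR-23b clusters had log2 fold changes above 0 with either or both replicates 3 left out, without passing the test. miR-23a-3p and miR-23b-3p, which are abundant in endothelium and smooth muscle, share a seed and were counted under separate names although they are near-identical. miR-23a-3p had 541, 440.9 and 838.2 CPM at 15 Gy 3 weeks, against 359, 297.7 and 300.8 CPM at 0 Gy 4 weeks. miR-23b-3p had 730.3, 768.9 and 1118 CPM at 15 Gy 3 weeks, against 618.1, 541.1 and 377.9 CPM at 0 Gy 4 weeks. Neither overlapped between the groups, and the shallow library was the highest in both, on 6 and 8 counts. For miR-23a-3p the log2 fold change was 0.88 (SE 0.42) and for miR-23b-3p 0.74 (SE 0.34), both with an edgeR adjusted p = 0.574, and without 15 Gy 3 weeks replicate 3 they were 0.58 and 0.53. miR-27a-3p of the miR-23a cluster had 1606, 1427 and 2096 CPM at 15 Gy 3 weeks, against 1452, 877 and 852.3 CPM at 0 Gy 4 weeks, where 1 control library lay above 1 irradiated one. Its minor arm miR-27a-5p went the other way, at -0.94 on the log2 scale, with 5.54, 6.04 and 0 CPM at 15 Gy 3 weeks, against 7.40, 9.12 and 18 CPM at 0 Gy 4 weeks. The other tested members, miR-24-3p at 0.48, miR-24-2-5p at 0.58, miR-27b-3p at 0.24 and miR-27b-5p at 0.12, overlapped between the groups. Scaled to miR-191a-5p, which the study used as the reference of its RT-qPCR, miR-23a-3p, miR-23b-3p and miR-27a-3p stayed above 0 at 0.26, 0.18 and 0.10, while the median of all miRNAs fell to -0.56.

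miR-183-5p, of an epithelial and sensory cell cluster, had 662, 688.6 and 279.4 CPM at 15 Gy 3 weeks, against 326.7, 405.7 and 182.5 CPM at 0 Gy 4 weeks. Replicate 3 was the lowest in either group, with 2 counts at 15 Gy, and the other 15 Gy libraries lay above all controls. On the log2 scale it stood at 0.90 (SE 0.43, edgeR adjusted p = 0.574), 1.14 without 15 Gy 3 weeks replicate 3 and 0.66 without 0 Gy 4 weeks replicate 3. miR-3553, read from the opposite strand, had nearly the same counts, at a median ratio of miR-183-5p to miR-3553 of 1.07 over 16 lung libraries (0.995 to 1.17). Whether the reads were counted by strand is not given in the sources used here, so that the pair is 1 observation. miR-96-5p of the cluster was at 0.78. miR-182 of the same cluster had 2774, 3049 and 2934 CPM at 15 Gy 3 weeks, against 2452, 2843 and 12490 CPM at 0 Gy 4 weeks, and its log2 fold change of -1.02 became 0.15 without 0 Gy 4 weeks replicate 3.

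The other leading higher miRNAs were minor arms or miRNAs of low level. let-7f-1-3p had 22.2, 20.5 and 0 CPM at 15 Gy 3 weeks, against 9.38, 5.93 and 7.71 CPM at 0 Gy 4 weeks. The 15 Gy libraries with enough depth for it lay above all controls, and the count of 0 in the shallow library allows up to 419.1 CPM. On the log2 scale let-7f-1-3p stood at 1.41 (SE 0.49, edgeR adjusted p = 0.574), and 1.43 without 15 Gy 3 weeks replicate 3. It was 0.30 against 0 Gy at 1 week. miR-98-3p with the same seed had 8.31, 5.44 and 139.7 CPM at 15 Gy 3 weeks. At 0 Gy 4 weeks it had 4.94, 1.82 and 1.29 CPM. Its value in the shallow library was a single count, and its log2 fold change over all libraries was 1.54. miR-21-3p, the minor arm of the injury miRNA miR-21, had 21.2, 29.0 and 139.7 CPM at 15 Gy 3 weeks, again with a single count in the shallow library, against 14.1, 12.8 and 6.43 CPM at 0 Gy 4 weeks. Its log2 fold change was 1.41 (SE 0.73), 1.14 without 15 Gy 3 weeks replicate 3 and 1.89 against 0 Gy at 1 week. miR-125b-1-3p, with 45.2, 42.3 and 0 CPM at 15 Gy 3 weeks, against 24.4, 24.2 and 23.1 CPM at 0 Gy 4 weeks, was at 0.78. miR-132-3p, which is induced by CREB and in inflammation, had 5.54, 10.9 and 0 CPM, against 4.69, 4.10 and 3.86 CPM, and was at 0.93.

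**Figure D2:**
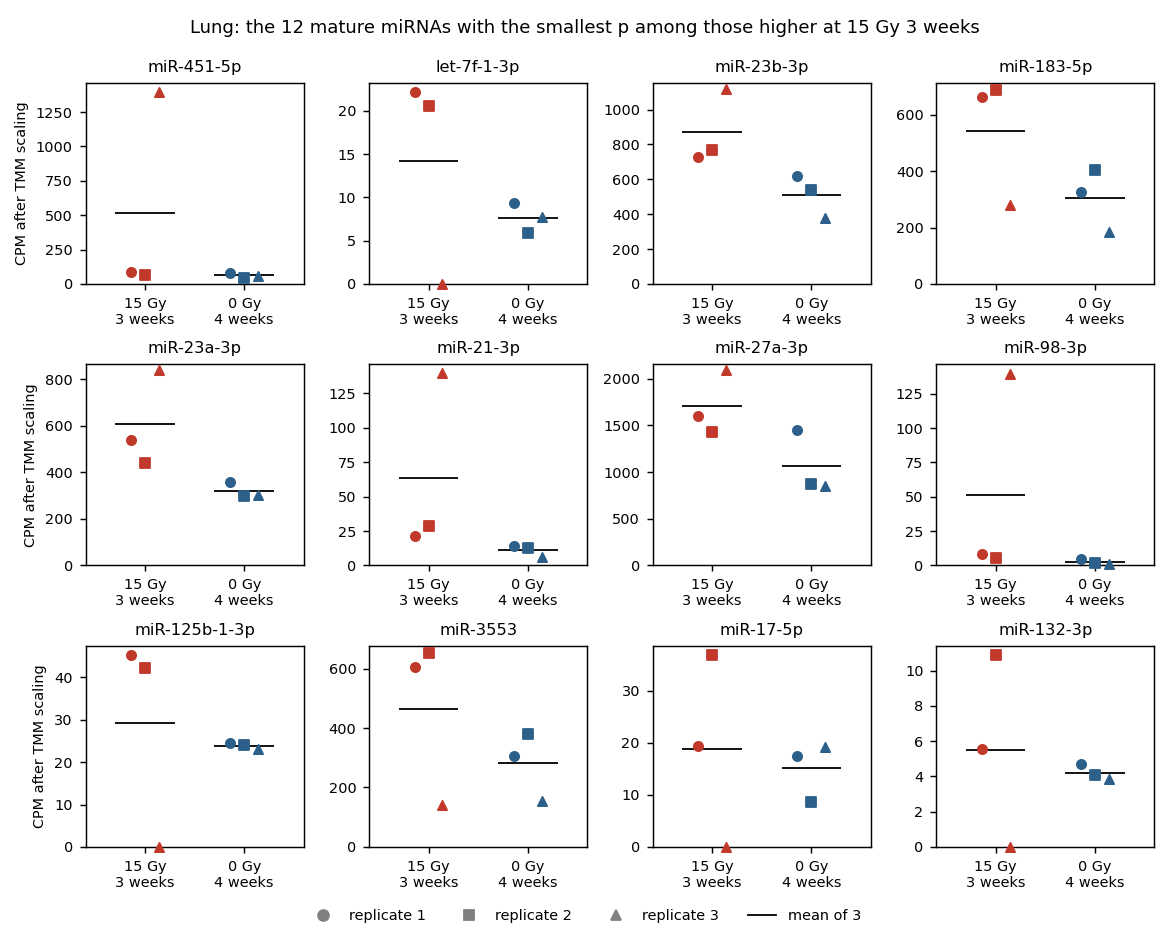
Levels (CPM after TMM scaling) of the 12 mature miRNAs with higher values and the smallest p, in 3 lung libraries at 15 Gy 3 weeks (red) and 3 at 0 Gy 4 weeks (blue), with the marker giving the replicate and the line the mean of 3. The point of 15 Gy 3 weeks replicate 3 is the highest for miR-451-5p (1397 CPM) and is at 0 for let-7f-1-3p, miR-125b-1-3p, miR-17-5p and miR-132-3p.

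The 2 arms of a hairpin were compared within each library, which needs no scaling between libraries. Per 1000 counts of let-7f-5p there were 1.36 and 1.61 counts of let-7f-1-3p in 15 Gy 3 weeks replicates 1 and 2, against 0.645, 0.496 and 0.228 at 0 Gy 4 weeks. let-7f-5p is also encoded by another hairpin, on the X chromosome, so that this ratio is not that of 1 hairpin. miR-98-3p had 112 and 49.7 counts per 1000 of miR-98-5p, against 44.2, 19.2 and 4.59. These ratios rested on 9 and 9 counts of miR-98-3p, against 20, 4 and 1. miR-21-3p had 19.6 and 19.8 counts per 1000 of miR-21-5p, against 12.6, 12.3 and 4.28. In these 3 comparisons the ratio was higher in both deep 15 Gy 3 weeks libraries than in any 0 Gy 4 weeks library. In each the lowest ratio of the controls was that of 0 Gy 4 weeks replicate 3. In the shallow library the minor arm rested on 0 or 1 count. miR-143-5p held 0.395 and 0.426 counts per 1000 of miR-143-3p, against 0.570, 0.358 and 0.0433, and the groups overlapped. miR-27a-5p held 3.45 and 4.23 counts per 1000 of miR-27a-3p, against 5.10, 10.4 and 21.1, so that here the minor arm held a smaller share in both deep 15 Gy 3 weeks libraries. miR-361-3p went the same way, with 214 and 552 counts per 1000 of miR-361-5p, against 646, 1550 and 2330. These arm pairs were chosen after their values were seen, and no test was made. Over all 52 arm pairs with both arms tested, the arms had the same sign of log2 fold change in 28 and opposite signs in 24.

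The let-7 family, which holds back proliferation and is high in mature tissue, gave a group value that leaned on 1 control library. Of 8 members tested with the seed GAGGUAG, 6 lay below 0, with a median of -0.73, where 54.7% of all 499 miRNAs lay below 0. None of the 8 had an unadjusted p under 0.05, where 5.41% of all 499 were lower at such a p. let-7i-5p had 2880, 3394 and 3073 CPM at 15 Gy 3 weeks, against 4029, 3623 and 8920 CPM at 0 Gy 4 weeks. let-7a-5p had 2233, 2245 and 1816 CPM at 15 Gy 3 weeks, against 3011, 2820 and 6057 CPM at 0 Gy 4 weeks. let-7c-5p had 2270, 2584 and 1397 CPM at 15 Gy 3 weeks, against 2973, 2666 and 4905 CPM at 0 Gy 4 weeks. The groups of these 3 did not overlap, and the control of replicate 3 was the highest each time. In the shallow library let-7i-5p, let-7a-5p and let-7c-5p rested on 22, 13 and 10 counts. let-7b-5p at 0.19 and let-7e-5p at 0.09 lay above 0, with 11 and 7 counts in that library. Without 15 Gy 3 weeks replicate 3, 0 of the 8 members lay above 0. The median of the family was -0.60 without 15 Gy 3 weeks replicate 3, -0.19 without 0 Gy 4 weeks replicate 3, -0.30 with scaling by library totals and 0.16 against 0 Gy at 1 week.

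No inflammation miRNA passed the test. Of 5 tested, 4 lay above 0, with a median of 0.58, and 0 had an unadjusted p under 0.05. Of all 499 miRNAs, 45.1% lay above 0, and 2.40% were higher and 5.41% lower at such a p. miR-146a-5p, which limits NF-kB signaling, had 2014, 1333 and 838.2 CPM at 15 Gy 3 weeks, against 1366, 765.3 and 717.3 CPM at 0 Gy 4 weeks. The groups overlapped, and the log2 fold change was 0.58 (SE 0.46), or 0.80 without 15 Gy 3 weeks replicate 3. miR-146b-5p had 17520, 15300 and 11870 CPM at 15 Gy 3 weeks, against 10930, 8957 and 16250 CPM at 0 Gy 4 weeks, which gave 0.31 (SE 0.33) on the log2 scale. miR-21-5p, the major arm, had 1081, 1462 and 419.1 CPM at 15 Gy 3 weeks, against 1115, 1037 and 1501 CPM at 0 Gy 4 weeks, so that it stood at -0.25 (SE 0.44) on the log2 scale, and at -0.01 without 15 Gy 3 weeks replicate 3.

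Leukocyte miRNAs gave small values. miR-150-5p of lymphocytes, which are sensitive to radiation, had 1149, 1094 and 2515 CPM at 15 Gy 3 weeks, against 1099, 952.2 and 1530 CPM at 0 Gy 4 weeks, and its log2 fold change was 0.38 with and -0.16 without 15 Gy 3 weeks replicate 3. miR-342-3p had 108, 104.5 and 139.7 CPM at 15 Gy 3 weeks, against 65.9, 70.7 and 104.1 CPM at 0 Gy 4 weeks, so that the groups just failed to overlap, and the 139.7 CPM was a single count (95% Poisson interval 3.54 to 778 CPM). miR-150-3p, the minor arm, was at -0.35, with 12.9, 10.3 and 0 CPM at 15 Gy 3 weeks, against 19.7, 19.6 and 2.57 CPM at 0 Gy 4 weeks. miR-223-3p of granulocytes and monocytes was at 0.08 (SE 0.52), miR-142-3p at -0.06 and miR-142-5p at 0.56. None of the 6 tested leukocyte miRNAs had an unadjusted p under 0.05, where 2.40% of all 499 were higher and 5.41% lower. At such shares 0 of 6 says little about these miRNAs.

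The miRNAs of structural cells likewise spread around 0. miR-126a-5p of endothelium had 8580, 14970 and 8801 CPM at 15 Gy 3 weeks, against 18790, 8404 and 5749 CPM at 0 Gy 4 weeks, at -0.02 (SE 0.50) on the log2 scale. The miR-200 family, which maintains epithelial identity, had 3 of 5 members above 0 and a median of 0.04. miR-141-3p led it, with 1476, 1983 and 1397 CPM at 15 Gy 3 weeks, against 1702, 716.1 and 1044 CPM at 0 Gy 4 weeks. The miR-34 and miR-449 miRNAs of ciliated cells and of the p53 response had 3 of 7 above 0. miR-34a-5p, a direct p53 target, had 72.0, 117.8 and 139.7 CPM at 15 Gy 3 weeks, against 79.0, 50.1 and 97.7 CPM at 0 Gy 4 weeks, at 0.42 (SE 0.34) on the log2 scale, and the shallow library had 1 count. The miR-29 miRNAs, which repress collagen genes, lay between 0.01 and 0.34, and against 0 Gy at 1 week their median was -0.14. The 3 mesenchymal miRNAs of the miR-199a and miR-214 group lay between -0.17 and 0.36. All 5 members of the miR-99, miR-100 and miR-125 group lay above 0, with a median of 0.51 and overlapping groups in each, but their median was -0.23 against 0 Gy at 1 week. Only miR-133a-3p of 4 heart and skeletal muscle miRNAs passed the filter on low counts, and miR-1-3p had 0 counts in the 3 libraries at 15 Gy 3 weeks, against 14, 7 and 0 at 0 Gy 4 weeks.

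**Figure D3:**
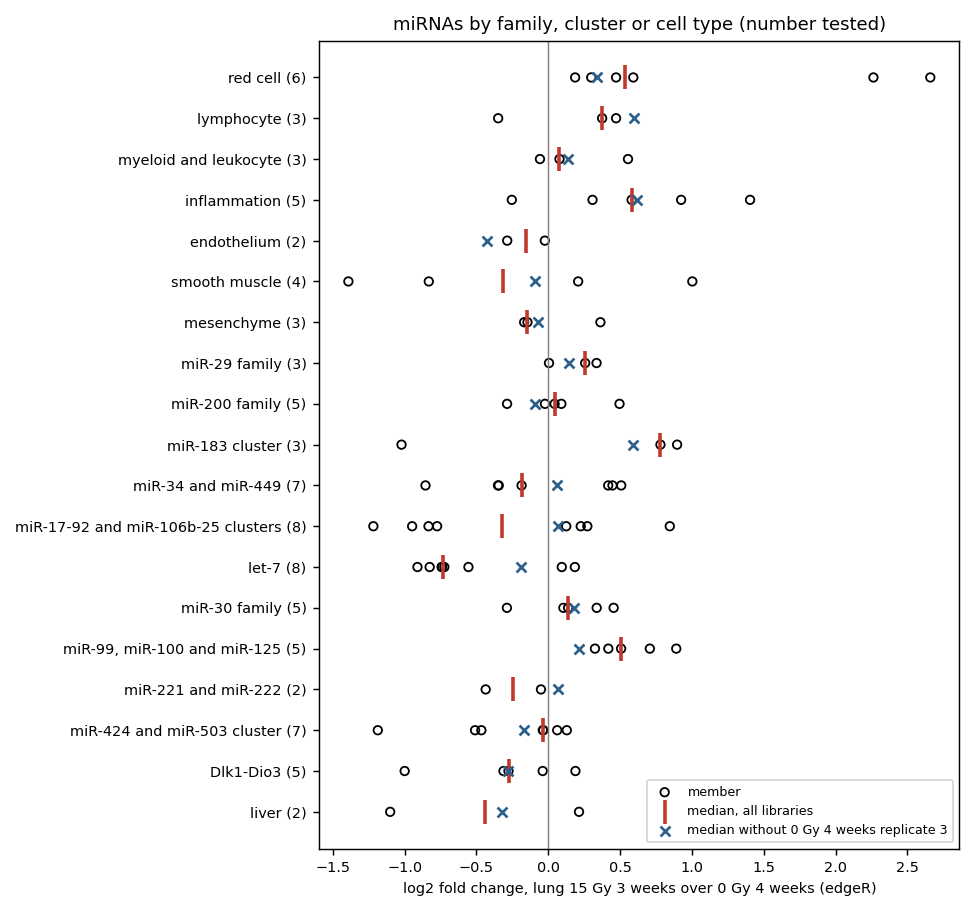
Log2 fold change (15 Gy 3 weeks over 0 Gy 4 weeks, edgeR) of each tested member of 19 families, clusters or cell type groups (open circles), with the median over all libraries (red bar) and without 0 Gy 4 weeks replicate 3 (blue cross). The let-7 median lies at -0.73 with and -0.19 without that library, and the red cell median at 0.53 and 0.34.

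None of the most abundant mature miRNAs passed the test. The 10 with the highest mean level held 65.0%, 69.4% and 58.8% of the mature counts at 15 Gy 3 weeks, against 66.4%, 65.6% and 80.7% at 0 Gy 4 weeks. miR-10a-5p of the Hox clusters, the most abundant after miR-143-3p, had 51970, 55660 and 38000 CPM at 15 Gy 3 weeks, against 49280, 49480 and 113300 CPM at 0 Gy 4 weeks. miR-26a-5p had 25000, 15950 and 16760 CPM at 15 Gy 3 weeks, against 25360, 14270 and 11010 CPM at 0 Gy 4 weeks, at 0.19 (SE 0.41) on the log2 scale. miR-30a-5p, an epithelial and endothelial miRNA, was at -0.29 (SE 0.41), and its minor arm miR-30a-3p at -1.46. miR-181a-5p was at -0.59 (SE 0.43), and all 4 miRNAs with its seed (ACAUUCA) lay below 0. miR-191a-5p had 9266, 8879 and 12710 CPM at 15 Gy 3 weeks, against 7736, 8072 and 4990 CPM at 0 Gy 4 weeks, at 0.57 (SE 0.40) on the log2 scale with no overlap between the groups.

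Counting miRNAs whose groups did not overlap gave a picture that depended on the shallow library. Of the 242 mature miRNAs, 7 lay higher and 22 lower in all 15 Gy 3 weeks libraries than in all 0 Gy 4 weeks libraries, where 2.40% and 10.0% of all 499 did. Of the 22 lower ones, 14 had 0 counts in 15 Gy 3 weeks replicate 3, and 8 had a count there, miR-375-3p, miR-127-3p, miR-143-3p, miR-101a-3p, miR-192-5p, let-7a-5p, let-7i-5p and let-7c-5p. For miR-127-3p, miR-101a-3p and miR-192-5p these were only 2, 4 and 3 counts. Without that library 24 lay higher and 28 lower, where 8.62% and 11.6% of all 499 did.

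The choice of control mattered for most of the leading values. Of the 12 leading higher miRNAs, 11 stayed above 0 against 0 Gy at 1 week, with a median of 0.46 in place of 0.89. The 12 leading lower ones all stayed below 0, with a median of -0.30 in place of -1.21, and 0 had an unadjusted p under 0.05. Between the controls themselves, 0 Gy at 4 weeks over 0 Gy at 1 week, all 12 of the lower group were above 0, with a median of 0.92, and 4 of them had an unadjusted p under 0.05. The main comparison and this one share the 0 Gy 4 weeks libraries, and the 12 were picked for higher values there. These counts are thus no test of a difference between the controls. The share of all 499 miRNAs with such a p against 0 Gy at 1 week was not counted. 0 Gy 1 week replicate 3 held 11621 counts, so that 1 library of that control was shallow as well.

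**Figure D4:**
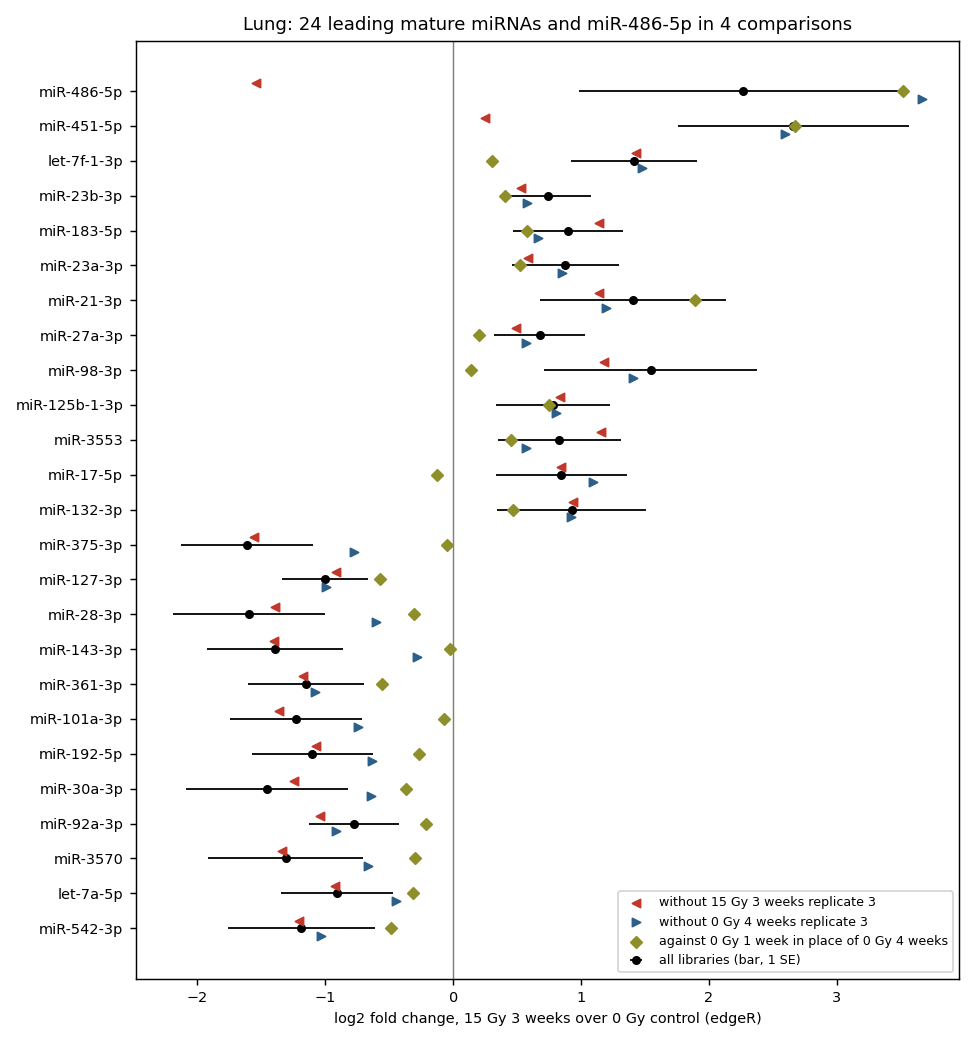
Log2 fold change (15 Gy 3 weeks over 0 Gy control, edgeR) of the 24 leading mature miRNAs and miR-486-5p, with all libraries and 1 SE (black), without 15 Gy 3 weeks replicate 3 (red), without 0 Gy 4 weeks replicate 3 (blue) and against 0 Gy at 1 week (olive). miR-451-5p falls to 0.25 and miR-486-5p to -1.54 without the shallow library, and miR-143-3p and miR-375-3p lie at -0.02 and -0.05 against 0 Gy at 1 week.

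Set against the weeks on either side, lung at 3 weeks after 15 Gy gave no call either. Against 15 Gy at 2 weeks edgeR called 0% of 499, with 7 (1.40%) higher and 11 (2.20%) lower at an unadjusted p under 0.05, and against 15 Gy at 4 weeks also 0%, with 11 (2.20%) higher and 7 (1.40%) lower. DESeq2 called 3 (0.605%) higher and 2 (0.403%) lower against 2 weeks, and 1 (0.202%) in each direction against 4 weeks, none of them mature miRNAs. Without 15 Gy 3 weeks replicate 3, 558 were tested and 0% passed in either comparison, with 3 (0.538%) higher and 10 (1.79%) lower at an unadjusted p under 0.05 against 2 weeks, and 4 (0.717%) higher and 4 (0.717%) lower against 4 weeks. miR-127-3p averaged 877 ± 9.82 CPM at 1 week, 667 ± 116 CPM at 2 weeks, 379 ± 93.7 CPM at 3 weeks and 263 ± 94.4 CPM at 4 weeks after 15 Gy (SD, n = 3 each). The 3 libraries at 3 weeks lay below the 3 at 2 weeks, with a log2 fold change of -0.77 (SE 0.34, edgeR adjusted p = 1), while those at 3 and 4 weeks overlapped, at 0.57 on the log2 scale (edgeR adjusted p = 1). miR-146b-5p had 14420, 13100 and 15040 CPM at 2 weeks, 17520, 15300 and 11870 CPM at 3 weeks, and 34010, 20400 and 28280 CPM at 4 weeks. The 3 week libraries lay below all 4 week libraries, with a log2 fold change of -0.89 (SE 0.33, edgeR adjusted p = 1). miR-21-5p at 1081, 1462 and 419.1 CPM, against 2736, 1314 and 1939 CPM at 4 weeks, had one of -0.97 (SE 0.44, edgeR adjusted p = 1). The inflammation list had a median of 0.13 against 2 weeks and of -0.89 against 4 weeks. miR-375-3p averaged 3784 ± 2172 CPM at 1 week, 2188 ± 75.3 CPM at 2 weeks, 2187 ± 752 CPM at 3 weeks and 2435 ± 668 CPM at 4 weeks after 15 Gy (SD, n = 3 each), against 6766 ± 5153 CPM at 0 Gy 4 weeks.

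miR-30c-1-3p had the smallest p against 2 weeks (log2 fold change 2.22, SE 0.56, edgeR adjusted p = 0.626), at 12.9, 10.3 and 0 CPM at 3 weeks, against 2.49, 1.25 and 4.71 CPM at 2 weeks. miR-449c-5p, of the cluster of multiciliated cells, followed at -1.89 (SE 0.60, edgeR adjusted p = 0.769), with 1.85, 6.64 and 0 CPM at 3 weeks, against 14.3, 13.8 and 23.6 CPM at 2 weeks. In both, the shallow library at 0 counts could not have shown such levels. let-7b-5p, at 897.4, 1196 and 1537 CPM at 3 weeks, against 865.9, 615.7 and 438 CPM at 2 weeks, did not overlap (0.90, SE 0.36, edgeR adjusted p = 1). The 1537 CPM stood for 11 counts in the shallow library (95% Poisson interval 767 to 2750 CPM), and 897.4 and 865.9 CPM were close.

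**Figure D5:**
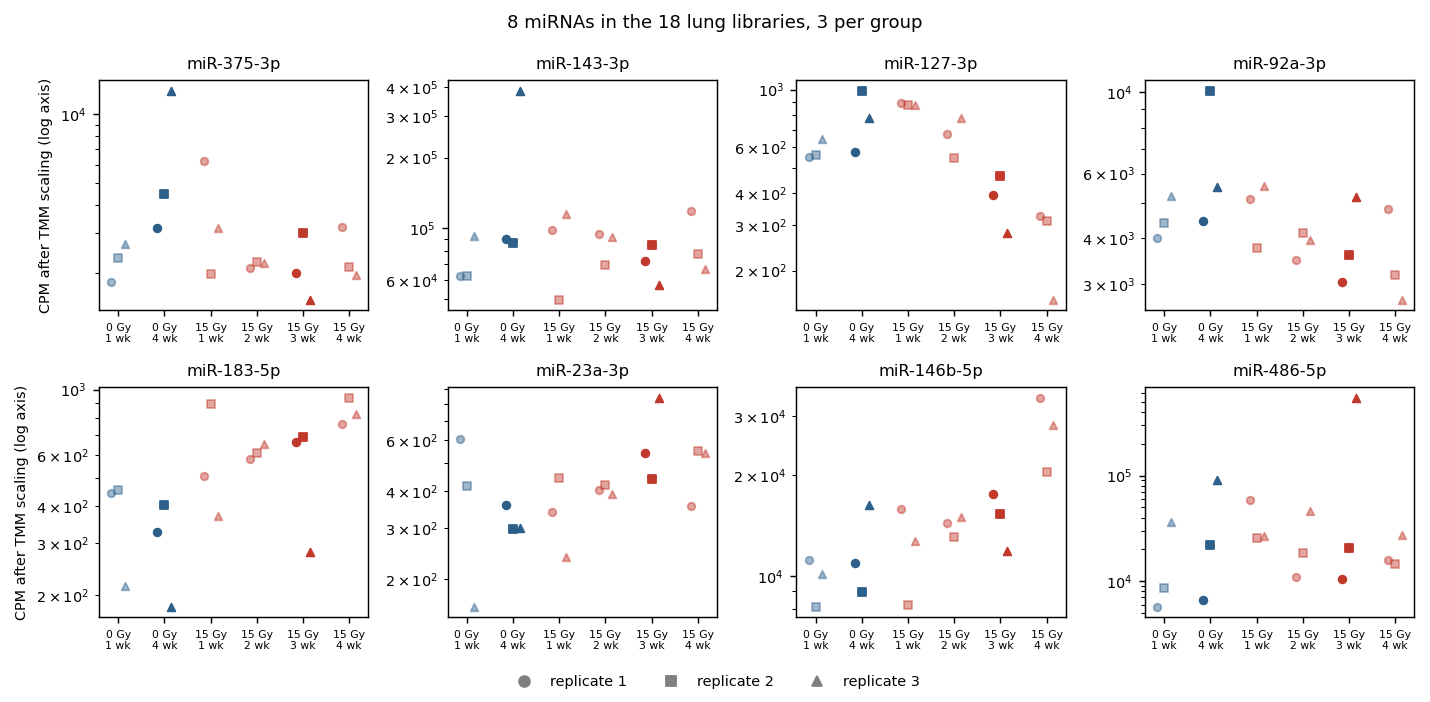
Levels (CPM after TMM scaling, log axis) of 8 miRNAs, chosen after their values were seen, in all 18 lung libraries, with 0 Gy at 1 and 4 weeks in blue and 15 Gy at 1 to 4 weeks in red, the marker giving the replicate and full color marking 15 Gy 3 weeks and 0 Gy 4 weeks. miR-127-3p averages 379 CPM at 3 weeks, between 667 CPM at 2 weeks and 263 CPM at 4 weeks, and miR-486-5p reaches 546400 CPM in 15 Gy 3 weeks replicate 3 only.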

How the data were processed

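The values deposited by the authors are raw read counts for 947 miRNAs in 36 small RNA libraries (458 mature rat miRNAs, 116 homologs of other species, 373 new). According to the methods and the submitters' processing notes, TruSeq small RNA libraries were amplified for 16 PCR cycles, adapters were removed with Trim Galore 0.2.5, reads were mapped to miRBase with Bowtie 1.1.1, reads of other RNA classes were removed, and new miRNAs were predicted with miRanalyzer on rn4. Reads of near-identical miRNAs, and of miRNAs on opposite strands, may be shared or counted under more than 1 name.

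Here no count was altered. The 18 lung libraries and all rows were fitted in R 4.3.3 with edgeR 4.0.16 (filterByExpr, TMM, quasi-likelihood test) and limma 3.58.1, with Benjamini-Hochberg adjustment over the 499 miRNAs that passed the filter, 242 of them mature, and a threshold of 0.05. SE is the size of the log2 fold change over the root of F, and 95% intervals are 1.96 SE. Levels are CPM after TMM scaling, and total counts of the 6 libraries compared ran from 8132 to 3807051. The authors used DESeq, and DESeq2 1.42.0 was run as an alternative. Other alternatives were the scaling (RLE, totals, miR-191a-5p), the filter, the rows and libraries fitted, the control, omission of miR-486-5p, a block for the replicate number, and omission of each library in turn. Leaving out both replicates 3 was chosen after seeing the data.

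Named are the 12 mature miRNAs with the smallest p in each direction, the members of 21 lists of families, clusters and cell types, the 10 most abundant, miR-486-5p, miR-191a-5p and, in the comparisons of weeks, those with the smallest p. The libraries, lists and rules were chosen with earlier results of these data known. Arm ratios and the comparisons of seeds were chosen after values were seen. The fit was tested on simulated data, in which unchanged miRNAs lay below 0 on median at the real depths. Whether this bears on the values here was not tested, and values without the shallow library are given for part of the named miRNAs only. P-values measure only the spread between these libraries.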

Additional observations from a re-analysis of the deposited data

How the results depend on the processing

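No call of edgeR at an adjusted p under 0.05 appeared in any comparison under the other scalings, filters, rows, libraries or controls, or with any replicate left out (0 to 0 higher and 0 to 0 lower). DESeq2 called 2 higher and 3 lower against 0 Gy 4 weeks, 3 and 2 against 15 Gy 2 weeks, and 1 and 1 against 15 Gy 4 weeks. At an unadjusted p under 0.05 edgeR gave 12 and 27, 7 and 11, and 11 and 7. Of 406 values of the 24 leading miRNAs under other settings, 405 kept their direction, and 1 turned, miR-17-5p at -0.12 against 0 Gy 1 week. DESeq2 and the changed filters on low counts were part of neither this count nor the next. A direction kept by miRNAs chosen for their small p is no sign of stability. The number of the 24 with an unadjusted p under 0.05 was 13 in the main fit, 5 with library totals, 3 with only the groups compared fitted (22 tested), 15 with mature rows only, 2 against 0 Gy 1 week, 14 without 0 Gy 4 weeks replicate 1, 7 without 15 Gy 3 weeks replicate 3, 4 without 0 Gy 4 weeks replicate 3, 3 without both replicates 3, and 3 to 12 under the others. Scaling moved the median of all miRNAs to 0.09 (library totals) or -0.56 (miR-191a-5p). Under a replicate block edgeR called 0 and the number was 12. The numbers were not taken as pairs in the main fit. Deviations of same-numbered libraries correlated at 0.20, 0.05 and 0.08, and those of differently numbered libraries at -0.14 to 0.03. Outside 15 Gy 1 week, replicate 3 had the fewest counts and the largest miR-486-5p share of each lung group. Whether the numbers mark a shared step was not tested. The cause of the shifts between settings was not tested either. Depth limits 15 Gy 3 weeks replicate 3, where levels under 419.1 CPM cannot be told from 0.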
